A study of Mus musculus with 5 samples.

Results

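The imprinted fetal growth genes are a given list of 10 symbols: H19, Igf2, Dlk1, Meg3, Plagl1, Cdkn1c, Peg3, Mest, Grb10 and Igf2r. Each symbol was matched to 1 Ensembl identifier of the deposited counts, so that the list makes up 10 of the 49671 genes counted. All 10 had at least 10 counts in at least 2 pools and were among the 14880 genes tested. Poly(A) RNA was sequenced from hearts of C57BL6/J mice at postnatal day 2 (PN2). The 3 CharmeWT pools were each made from 9 hearts of littermates, and the 2 CharmeKO pools from 3 hearts each, so that genotype and the size of a pool cannot be told apart. In CharmeKO mice a PolyA signal inserted in the locus of the lncRNA Charme ends its transcription early, in all tissues. The comparison asks how the loss of Charme bears on genes of the neonatal heart.

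Genomic imprinting is the expression of a gene from only the maternal or only the paternal copy, set by DNA methylation laid down in the germ line. Most of the 10 genes act on growth before birth, with growth promoters mainly expressed from the paternal copy and growth inhibitors mainly from the maternal copy, and their transcripts decline after birth in many organs. In mouse, Igf2, Dlk1, Plagl1, Peg3 and Mest are paternally expressed, while H19, Meg3, Cdkn1c and Igf2r are maternally expressed, as is Grb10 outside the brain. The counts carry no information on the parental copy, and every value below is the sum of both.

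The promoters of Meg3 and Dlk1 are shown because both genes lie in the Dlk1-Dio3 domain of chromosome 12 and gave the largest fold changes of the list, and those of Rian and Zim1 because these 2 neighbours of list members were called. Each sequence runs 5′ to 3′ from 250 bases before to 50 bases after a start site, in RefSeq on GRCm38.p6. The windows are chr12:109540746-109541045 (plus strand) for the first start site of Meg3, chr12:109452573-109452872 (plus strand) for Dlk1, chr12:109603695-109603994 (plus strand) for Rian and chr7:6696383-6696682 (minus strand) for Zim1. Capitals mark matches to TATAAA, the TATA box, or to GGGCGG, the GC box, on either strand.
Meg3: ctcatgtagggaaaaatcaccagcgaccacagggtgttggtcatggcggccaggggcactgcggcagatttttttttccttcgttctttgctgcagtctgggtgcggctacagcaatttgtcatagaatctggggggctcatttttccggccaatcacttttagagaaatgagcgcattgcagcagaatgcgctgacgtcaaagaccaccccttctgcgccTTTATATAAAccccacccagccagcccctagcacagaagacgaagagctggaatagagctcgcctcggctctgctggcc
Dlk1: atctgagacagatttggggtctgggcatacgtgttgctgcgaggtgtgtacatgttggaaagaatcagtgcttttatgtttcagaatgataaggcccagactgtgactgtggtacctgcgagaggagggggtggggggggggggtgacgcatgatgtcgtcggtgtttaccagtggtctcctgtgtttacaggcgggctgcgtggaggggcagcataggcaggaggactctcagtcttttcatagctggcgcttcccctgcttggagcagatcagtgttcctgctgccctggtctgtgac
Rian: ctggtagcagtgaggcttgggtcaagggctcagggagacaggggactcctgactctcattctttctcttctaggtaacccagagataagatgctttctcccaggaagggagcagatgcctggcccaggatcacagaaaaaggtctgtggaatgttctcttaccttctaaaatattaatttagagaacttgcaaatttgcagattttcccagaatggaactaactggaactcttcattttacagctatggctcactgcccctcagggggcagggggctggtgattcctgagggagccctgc
Zim1: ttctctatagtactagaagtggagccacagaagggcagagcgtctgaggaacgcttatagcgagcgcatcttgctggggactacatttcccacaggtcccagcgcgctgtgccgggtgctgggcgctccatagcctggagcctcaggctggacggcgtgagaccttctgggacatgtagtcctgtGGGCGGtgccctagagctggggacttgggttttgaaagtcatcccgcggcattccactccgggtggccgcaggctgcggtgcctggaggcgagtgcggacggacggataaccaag
The window of Meg3 held 2 overlapping matches to TATAAA, starting 29 and 25 bases before the start site, 1 on each strand. A match to TATAAA was found in 13.6% of the 32851 promoter windows of the same length, and a match to GGGCGG in 35.7%. Zim1 held 1 GGGCGG, while Dlk1 and Rian held neither motif. CpG dinucleotides numbered 13 in the Meg3 window, 9 in that of Dlk1, 0 in that of Rian and 20 in that of Zim1. Of the 10 genes, 8 matched the promoter table, with 15 start sites in all, and H19 and Cdkn1c did not. GGGGCCCC, the letters recognised by the zinc finger protein Plagl1, occurred in 1.08% of all windows and, among the 8 genes matched, once in that of Peg3. A match is a description of letters and was not tested as a binding site.

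The depth on genes ranged from 16721055 to 21646378 fragments per pool. The targeted gene, Charme, had 810, 183 and 276 counts in CharmeWT pools 1 to 3, and 57 and 79 counts in CharmeKO pools 1 and 2 (log2 fold change -2.49, SE 0.549, adjusted p = 0.0763 from the quasi-likelihood test of edgeR). That call was lost without CharmeWT pool 1, the pool with the highest count (log2 fold change -1.68, adjusted p = 0.153 in the same test), and in 3 other alternatives: without CharmeWT pool 3 (adjusted p = 0.275), in the robust test (0.120) and with the replicate number and a length and GC correction in the fit (0.143). The summed level of 6 cardiomyocyte markers was between 33670 and 44442 CPM, the count scaled to TMM-normalised library size, in every pool. Among these 6, Nppa had both CharmeKO pools above every CharmeWT pool, Myh6 had both below and 4 overlapped. Over all genes tested, 17.8% lay above and 18.2% below, and 0 of the 6 were called. Both CharmeKO pools stood apart in other ways. Mitochondrial genes took 21.1% of counts in CharmeKO pool 1 and between 9.68% and 11.1% in the other pools. All 6 salivary gland markers were highest in CharmeKO pool 2, where they summed to 24708 CPM, against 325 CPM in CharmeKO pool 1 and at most 0.170 CPM in CharmeWT pools. All 6 adipose markers were also highest in CharmeKO pool 2, with a sum of 666 CPM, against 36.9 CPM in CharmeKO pool 1 and between 2.37 and 4.85 CPM in CharmeWT pools. In bulk RNA, fewer cells of a type and less RNA per cell cannot be told apart.

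Of the 10 genes, 1 rose in CharmeKO hearts, the maternally expressed lncRNA Meg3, and 0 fell. Calls needed a Benjamini-Hochberg adjusted p under 0.1 in the quasi-likelihood test of edgeR, fitted to all genes tested, together with a mean FPKM of 1 or more in either genotype. By that rule 1.53% of all genes tested were called higher and 0.524% lower. At an unadjusted p under 0.05 stood 3 of the 10 genes, Meg3, Cdkn1c and Dlk1, all with higher values in CharmeKO hearts, as against 2767 of the 14880 genes. The likelihood ratio test called 2 of the 10 higher, Meg3 and Cdkn1c, and 0 lower, where it called 3.92% of all genes higher and 2.35% lower. DESeq2 called the same 2 genes higher and 0 lower, where it called 4.17% of all genes higher and 3.37% lower. Both CharmeKO pools lay above every CharmeWT pool for 2 of the 10 genes, Meg3 and Cdkn1c, and below for 0, where this held for 17.8% and 18.2% of all genes tested. The median log2 fold change of the 10 genes, CharmeKO over CharmeWT, was 0.25, and that of all genes tested was 0.02.

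**Figure D1:**
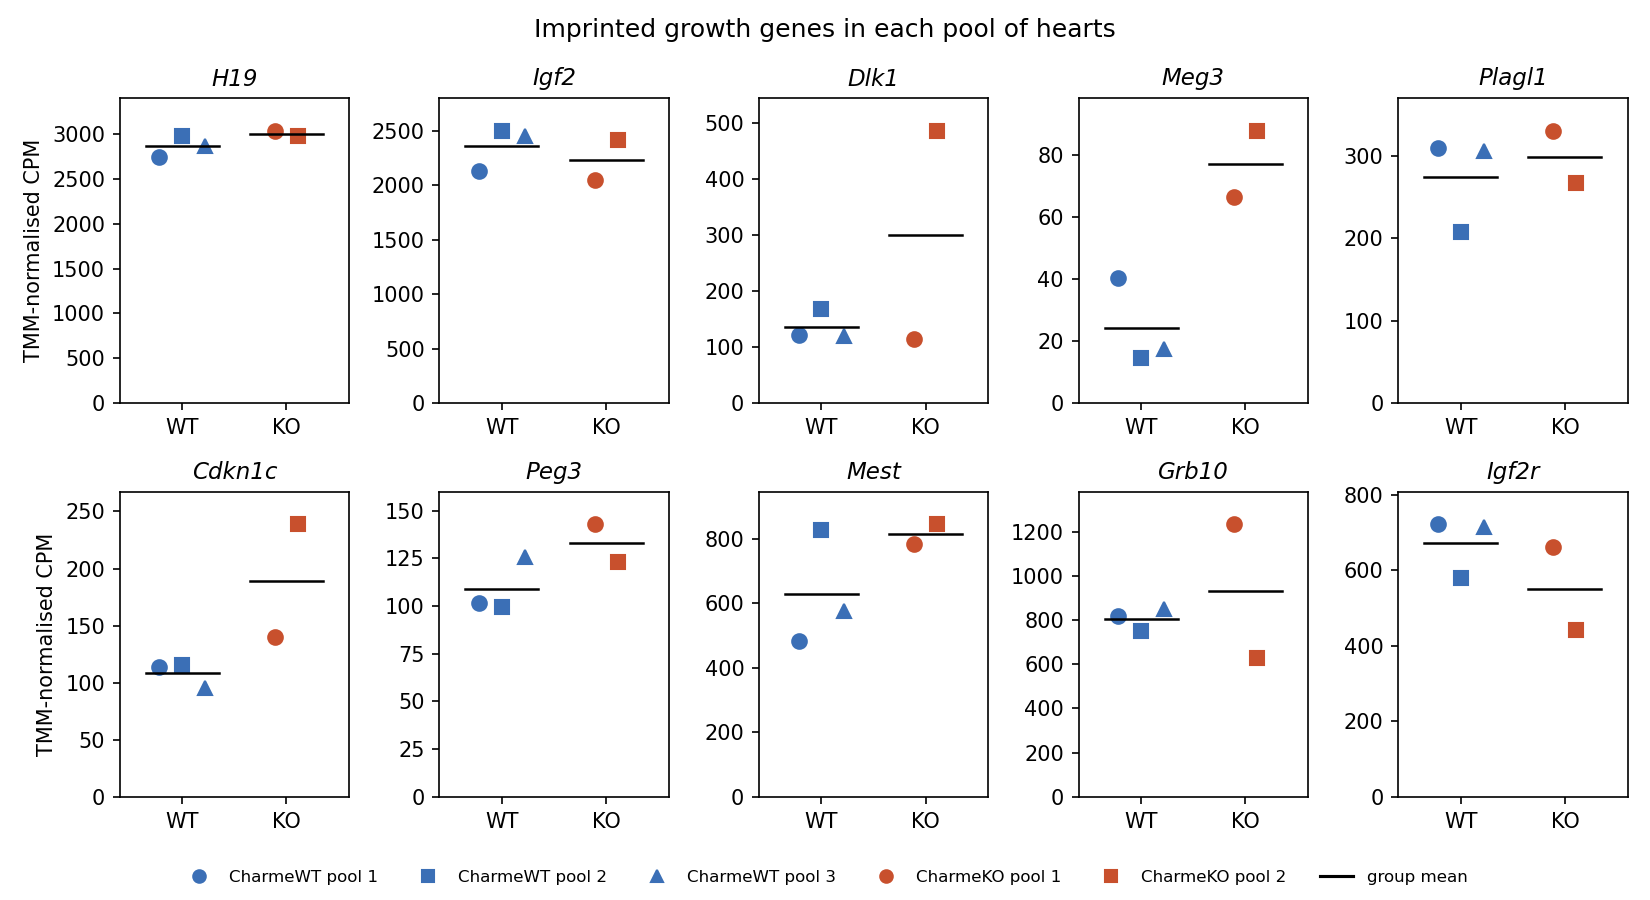
Each panel plots the level of 1 imprinted growth gene, in TMM-normalised CPM on an axis that starts at 0, in 3 CharmeWT pools (blue) and 2 CharmeKO pools (red); points are pools and bars are group means. Only Meg3 and Cdkn1c had both CharmeKO pools above every CharmeWT pool, and the CharmeKO pools of Dlk1 and Grb10 lay far apart.

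These counts depended on which CharmeKO pool was used. Without CharmeKO pool 1, 3 of the 10 genes were called higher (Meg3, Cdkn1c and Dlk1) and 0 lower, where 3.06% of all genes tested were called higher and 1.27% lower. Without CharmeKO pool 2, the pool with salivary gland and adipose transcripts, 2 were called higher (Meg3 and Grb10) and 0 lower, where 16.1% of all genes were called higher and 15.6% lower. The remaining CharmeKO pool in such a fit is assumed to vary like the CharmeWT pools. Meg3 was called in both fits, and no other gene of the list was. For 4 of the 10 genes, Igf2, Dlk1, Plagl1 and Grb10, the CharmeKO pools lay on opposite sides of the CharmeWT mean.

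**Figure D2:**
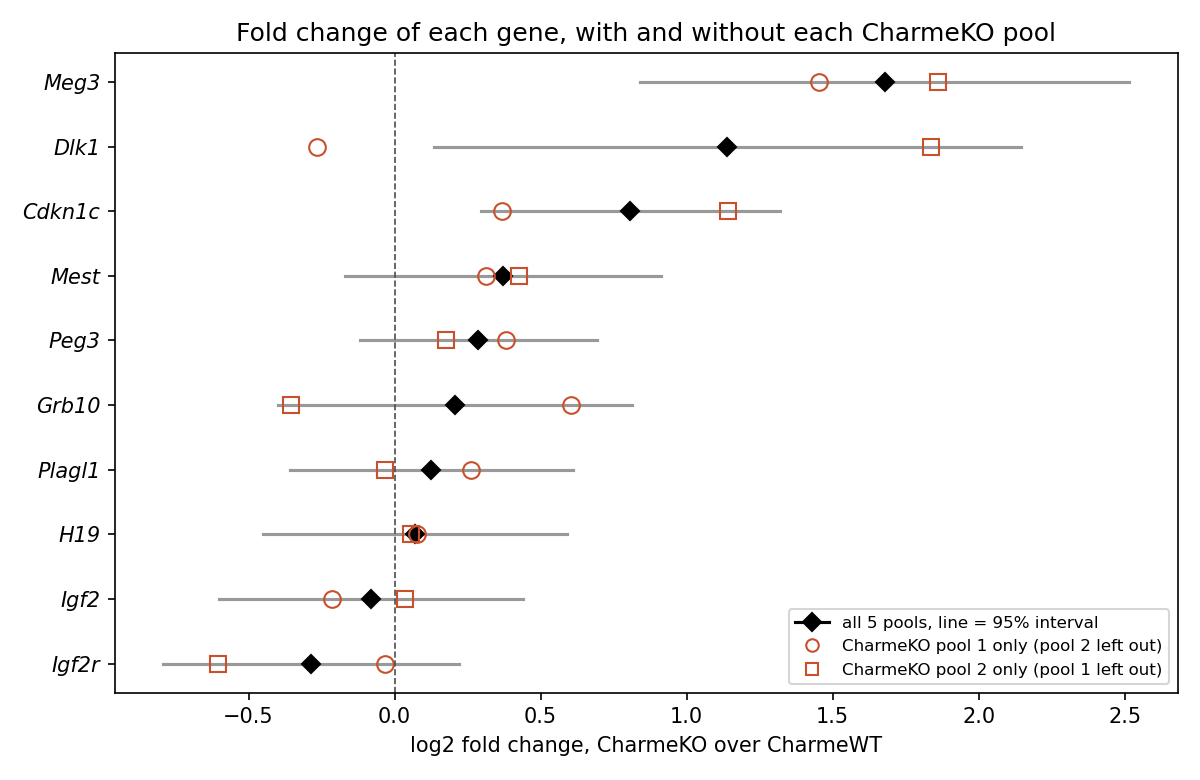
The log2 fold change of each gene, CharmeKO over CharmeWT, is plotted as a diamond with its 95% interval from the quasi-likelihood fit to all 5 pools; open circles and squares give the values with only CharmeKO pool 1 or only CharmeKO pool 2. The open symbols for Igf2, Dlk1, Plagl1 and Grb10 fall on opposite sides of 0, while both open symbols for Meg3 stay above 1.4.

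The most abundant of the 10 transcripts was that of H19, a maternally expressed lncRNA whose exons hold the precursor of miR-675. H19 lies at chr7:142575529-142578143 on the minus strand of GRCm38. Its level in CharmeWT hearts was 1165 ± 47.2 FPKM (SD, n = 3), which placed it at rank 24 of all genes. In CPM, H19 stood at 2751, 2983 and 2863 in CharmeWT pools 1 to 3 and at 3039 and 2974 in CharmeKO pools 1 and 2. The groups overlapped, and the log2 fold change was 0.07 (SE 0.234, 95% interval -0.45 to 0.59, adjusted p = 0.892 from the quasi-likelihood test of edgeR). The miRNA gene Mir675 was listed at 0 counts in every pool. It overlaps an exon of H19 on the same strand, so this count does not measure miR-675.

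Igf2 encodes the fetal growth factor IGF2 and shares enhancers and an imprinting control region with H19. With 412 ± 34.6 FPKM in CharmeWT hearts (SD, n = 3) it was the next most abundant of the 10. Its values were 2134, 2499 and 2448 CPM in CharmeWT pools and 2044 and 2417 CPM in CharmeKO pools. CharmeKO pool 1 was the lowest pool and CharmeKO pool 2 lay inside the CharmeWT range, so that the groups overlapped (log2 fold change -0.08, SE 0.233, 95% interval -0.60 to 0.44, adjusted p = 0.872 from the same test). Within a pool, the ratio of H19 to Igf2 in FPKM was 3.0, 2.78 and 2.72 in CharmeWT pools and 3.46 and 2.86 in CharmeKO pools. The log2 ratio was 0.15 higher in CharmeKO pools (exact permutation test, two-sided, p = 0.3). With 10 assignments of 3 and 2 pools, the smallest p this test can give is 0.1. Of the summed FPKM of the 10 genes, H19 and Igf2 together took between 77.6% and 78.6% in CharmeWT pools and 74.3% and 73.7% in CharmeKO pools 1 and 2.

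Igf2r encodes the receptor that takes up IGF2 and sends it to lysosomes. Its values were 721, 579 and 715 CPM in CharmeWT pools and 660 and 441 CPM in CharmeKO pools. CharmeKO pool 2 was the lowest and CharmeKO pool 1 lay inside the CharmeWT range (log2 fold change -0.29, SE 0.227, 95% interval -0.79 to 0.22, adjusted p = 0.512 from the quasi-likelihood test of edgeR). The log2 fold change was -0.60 without CharmeKO pool 1, -0.03 without CharmeKO pool 2 and -0.06 after the length and GC correction, and Igf2r was called in none of these. The ratio of Igf2 to Igf2r in FPKM was 4.81, 7.02 and 5.57 in CharmeWT pools and 5.03 and 8.91 in CharmeKO pools, with groups that overlapped (log2 difference 0.22, exact permutation test, two-sided, p = 0.6). Without CharmeKO pool 2 the log2 difference was -0.19. Airn, the antisense RNA that crosses Igf2r, was counted apart by strand.

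Grb10 encodes an adaptor protein that inhibits signalling from the insulin and IGF1 receptors. It was at 820, 749 and 850 CPM in CharmeWT pools, and at 1233 CPM in CharmeKO pool 1 and 630 CPM in CharmeKO pool 2. The CharmeKO pools were the highest and the lowest of the 5, 1.96-fold apart. With both, the log2 fold change was 0.21 (SE 0.271, 95% interval -0.40 to 0.81, adjusted p = 0.699 from the quasi-likelihood test of edgeR). Without CharmeKO pool 2 it was 0.60 (adjusted p = 0.0396 from that test), and without CharmeKO pool 1 it was -0.35 (adjusted p = 0.459), where adjusted p over all 17 alternatives was between 0.0396 and 0.873.

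Cdkn1c, the maternally expressed inhibitor of cyclin-dependent kinases p57, holds cells out of the cycle. It was at 114, 116 and 95.2 CPM in CharmeWT pools and at 140 and 239 CPM in CharmeKO pools. Both CharmeKO pools were above every CharmeWT pool, CharmeKO pool 1 by 1.30-fold and CharmeKO pool 2 by 2.20-fold over the CharmeWT mean. The log2 fold change of 0.81 (SE 0.229, 95% interval 0.30 to 1.32) missed the threshold, with adjusted p = 0.140 from the quasi-likelihood test of edgeR. It was past the threshold by the likelihood ratio test of edgeR (adjusted p = 0.0493), by DESeq2 (adjusted p = 0.0397), after correcting each pool for its trends on GC content and transcript length (adjusted p = 0.0401) and without CharmeKO pool 1 (log2 fold change 1.14, adjusted p = 0.00218). Without CharmeKO pool 2 the log2 fold change was 0.37 (adjusted p = 0.140 from the quasi-likelihood test of edgeR). Over all 17 alternatives the adjusted p was between 0.00218 and 0.542. Adipose and salivary gland markers were likewise highest in CharmeKO pool 2 and next highest in CharmeKO pool 1, and their part in the value of Cdkn1c was not tested.

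Dlk1 encodes a transmembrane protein related to the ligands of Notch, also known as preadipocyte factor 1, and is paternally expressed. It was at 121, 168 and 119 CPM in CharmeWT pools, 114 CPM in CharmeKO pool 1 and 486 CPM in CharmeKO pool 2. CharmeKO pool 1 was the lowest of the 5 pools and CharmeKO pool 2 the highest, 4.28-fold above it and 3.57-fold above the CharmeWT mean. The log2 fold change was 1.14 (SE 0.451, 95% interval 0.13 to 2.15) and did not pass the threshold, with an adjusted p = 0.231 from the quasi-likelihood test of edgeR. It was 1.84 without CharmeKO pool 1 (adjusted p = 0.000108 from that test) and -0.27 without CharmeKO pool 2 (adjusted p = 0.378), where adjusted p over all 17 alternatives was between 0.000108 and 0.580. The higher level of Dlk1 was thus measured in a single pool, the one with 666 CPM of adipose and 24708 CPM of salivary gland markers, and the part of those transcripts in it was not tested.

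**Figure D3:**
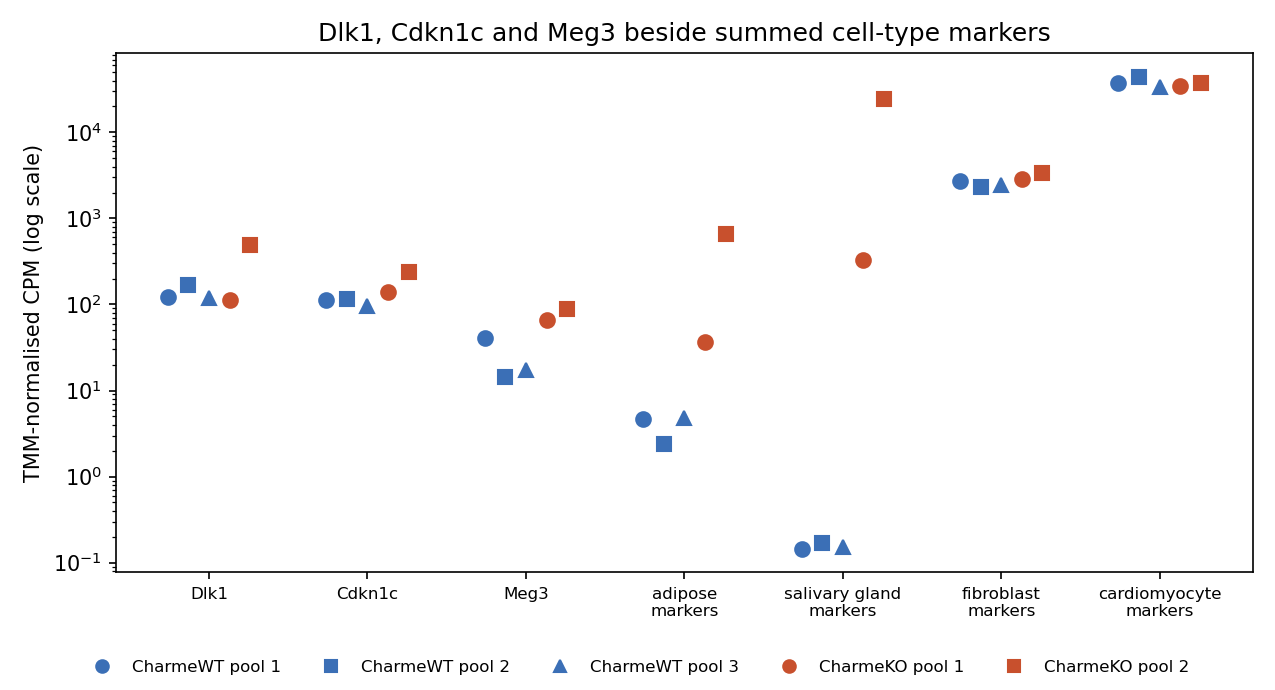
The levels of Dlk1, Cdkn1c and Meg3 and the summed levels of 4 marker lists of 6 genes each are plotted per pool, in TMM-normalised CPM on a log axis (blue, CharmeWT; red, CharmeKO). Adipose and salivary gland markers were highest in CharmeKO pool 2, the pool in which Dlk1 reached 486 CPM, and cardiomyocyte markers were between 33670 and 44442 CPM in all 5 pools.

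Meg3 lies at chr12:109541001-109571726 on the plus strand, downstream of Dlk1 and under the same imprinting control region, and is transcribed from the maternal copy. It had 834, 256 and 343 counts in CharmeWT pools and 940 and 1962 counts in CharmeKO pools. In CPM these were 40.5, 14.5 and 17.3 in CharmeWT pools and 66.5 and 87.9 in CharmeKO pools. Both CharmeKO pools were above every CharmeWT pool, and CharmeWT pool 1 was more than 2-fold above the other CharmeWT pools. The log2 fold change was 1.68 (SE 0.375, 95% interval 0.84 to 2.52, adjusted p = 0.0798 from the quasi-likelihood test of edgeR), or a 3.20-fold rise. The log2 fold change was between 1.42 and 2.28 with any 1 pool left out and between 1.65 and 1.85 in 12 alternatives with all 5 pools. The call was lost without CharmeWT pool 2 (adjusted p = 0.140 from the same test), without CharmeWT pool 3 (adjusted p = 0.363) in the robust form of the test (adjusted p = 0.116) and with the replicate number and the length and GC correction in the fit (adjusted p = 0.266), in a range of 0.00110 to 0.363 over 17 alternatives. Meg3, too, was highest in CharmeKO pool 2, with its adipose and salivary gland transcripts, and without that pool its log2 fold change was 1.45 (adjusted p = 0.0241 from the same test). The ratio of Meg3 to Dlk1 in FPKM was 0.105, 0.0269 and 0.0454 in CharmeWT pools and 0.183 and 0.0565 in CharmeKO pools, with groups that overlapped (log2 difference 1.01, exact permutation test, two-sided, p = 0.4). That difference was 0.17 without CharmeKO pool 1, 1.86 without CharmeKO pool 2 and 0.56 without CharmeWT pool 2.

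The other 3 genes encode zinc finger proteins or a hydrolase-fold protein and were not called. Plagl1, which acts on the cell cycle and on other imprinted genes, was at 309, 208 and 305 CPM in CharmeWT pools and 330 and 267 CPM in CharmeKO pools (log2 fold change 0.13, SE 0.217, 95% interval -0.36 to 0.61, adjusted p = 0.779 from the quasi-likelihood test of edgeR). Peg3, a paternally expressed zinc finger gene, was at 101, 99.4 and 126 CPM in CharmeWT pools and 143 and 123 CPM in CharmeKO pools (log2 fold change 0.29, SE 0.182, 95% interval -0.12 to 0.69, adjusted p = 0.414 from the same test). Mest, the gene of the hydrolase-fold protein, was at 484, 826 and 577 CPM in CharmeWT pools and 784 and 844 CPM in CharmeKO pools (log2 fold change 0.37, SE 0.242, 95% interval -0.17 to 0.91, adjusted p = 0.424 from the same test). The groups of all 3 genes overlapped. CharmeWT pool 2 was the lowest for Plagl1 and close to the CharmeKO pools for Mest.

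Per length, the order of the levels in CharmeWT hearts after H19 and Igf2 was Mest with 159 FPKM, Grb10 with 88.7, Igf2r with 72.1, Cdkn1c with 53.1, Plagl1 with 35, Dlk1 with 24.1, Peg3 with 8.17 and Meg3 with 1.33 FPKM. Of the 9 pairs of neighbours in that order, 8 had CharmeWT pools that did not overlap, the exception being Plagl1 and Dlk1. In CharmeKO pools 3 pairs overlapped, the same one, Grb10 with Igf2r, and Igf2r with Cdkn1c. The length given to Meg3 joins the exons of all its annotated transcripts, 18089 bases with retained introns, which lowers its FPKM beside that of the others. The SD was under 20% of the mean in CharmeWT pools for 6 of the 10 genes. It was 59.2% for Meg3, the highest of the 10. Together the 10 genes summed to 1908, 2125 and 2025 FPKM in CharmeWT pools and to 2143 and 2213 FPKM in CharmeKO pools.

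In its course over the 5 pools H19 was closest to Sri, which encodes the calcium-binding protein sorcin, at a root mean square distance of 0.0117 in centred log2 CPM among 11563 genes. The next were Eef2kmt (0.0192), Rab1a (0.0194), Toe1 (0.0217) and Ryk (0.026). Igf2 was at 0.123, rank 1174, and among the other list members Peg3 was the nearest at 0.176 and Meg3 the farthest at 1.0. As H19 varied little between pools, closeness here marks genes that varied as little.

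Further genes of the imprinted domains that hold the 10 were examined as a list of 18, of which 13 were tested. Of these 2 rose in CharmeKO hearts, Rian and Zim1, and 0 fell (1.53% and 0.524% of all genes). The median log2 fold change was 0.49. The quasi-likelihood test put 6 of the 13 at an unadjusted p under 0.05, beside 2767 of all 14880 genes. The likelihood ratio test and DESeq2 each called 2 higher and 1 lower. Over all genes these tests called 3.92% and 4.17% higher and 2.35% and 3.37% lower. Without CharmeKO pool 1 the calls were 2 higher and 0 lower (3.06% and 1.27% of all genes), and without CharmeKO pool 2 they were 4 higher and 1 lower (16.1% and 15.6% of all genes). Without CharmeWT pool 1 or CharmeWT pool 3 no gene of this list was called, but over all genes only 2 and 0 were.

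Rian, the maternally expressed lncRNA downstream of Meg3 that hosts small nucleolar RNAs, was at 42.1, 32.0 and 32.8 CPM in CharmeWT pools and at 93.3 and 84.4 CPM in CharmeKO pools. The CharmeKO pools lay close to each other and above every CharmeWT pool (log2 fold change 1.32, SE 0.188, adjusted p = 0.0336 from the quasi-likelihood test of edgeR). Zim1, a maternally expressed zinc finger gene beside Peg3, was at 6.06, 7.52 and 9.04 CPM in CharmeWT pools and at 22.6 and 18.6 CPM in CharmeKO pools (log2 fold change 1.45, SE 0.248, adjusted p = 0.0408 from the same test). For both genes the higher CharmeKO pool was pool 1. That pool, too, held adipose (36.9 CPM) and salivary gland (325 CPM) markers above every CharmeWT pool, though less than CharmeKO pool 2. The part of such transcripts in both genes was not tested. Both calls were lost without CharmeWT pool 1 (adjusted p = 0.120 for Rian and 0.167 for Zim1 from that test) without CharmeWT pool 3 (adjusted p = 0.252 and 0.243) and with the replicate number and the length and GC correction in the fit (log2 fold change 0.87 and adjusted p = 0.245 for Rian, 1.42 and 0.142 for Zim1), and over 17 alternatives the highest adjusted p was 0.252 for Rian and 0.243 for Zim1.

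In the Dlk1-Dio3 domain 5 of 6 genes were tested. All 5 were at an unadjusted p under 0.05, beside 2767 of all 14880 genes. As neighbours in 1 imprinted domain these 5 need not vary independently, so they are not 5 separate observations. Dlk1 was above the CharmeWT pools in CharmeKO pool 2 only. Besides Meg3, Rian and Dlk1 the 5 included Mirg, a maternally expressed miRNA host transcript, and Rtl1, a paternally expressed gene derived from a retrotransposon. Mirg and Rtl1 were named after their values were seen. Mirg was at 2.23, 1.87 and 0.960 CPM in CharmeWT pools and 2.41 and 5.10 CPM in CharmeKO pools (log2 fold change 1.19, adjusted p = 0.210 from the quasi-likelihood test of edgeR). Rtl1 was at 3.49, 3.22 and 3.44 CPM in CharmeWT pools and 0.495 and 2.01 CPM in CharmeKO pools (log2 fold change -1.32, adjusted p = 0.196 from the same test). Both genes were at low levels, and 0 of 17 alternatives called either. Where their adjusted p was under 0.1, the FPKM filter kept them from a call. Meg3, Rian and Mirg had both CharmeKO pools above every CharmeWT pool and Rtl1 had both below, where this held for 17.8% and 18.2% of all genes tested, and Mirg in CharmeKO pool 1 exceeded CharmeWT pool 1 only narrowly. Dio3, the sixth gene, had 0 counts in every pool. In the Peg3 domain 3 genes were tested and Zim1 was the call. In the Kcnq1 domain, which holds Cdkn1c, 5 of 7 genes were tested and 0 were called, with 3 at an unadjusted p under 0.05. The highest log2 fold change there was 1.36, that of the lncRNA Kcnq1ot1, named after its values were seen. It was between 0.92 and 1.38 in 12 alternatives with all 5 pools, and 0 of 17 alternatives called it. Where its adjusted p was under 0.1, the FPKM filter kept Kcnq1ot1 from a call. The likelihood ratio test and DESeq2 each called 1 higher (3.92% and 4.17% of all genes) and 1 lower (2.35% and 3.37%). Kcnq1, which encodes a cardiac potassium channel, was at 101.6, 93.6 and 82.1 CPM in CharmeWT pools and 58.0 and 59.4 CPM in CharmeKO pools (log2 fold change -0.65, SE 0.177, adjusted p = 0.130 from the quasi-likelihood test of edgeR). The most abundant of the list, Cd81 and Ddc, had log2 fold changes of 0.12 and -0.25, and neither was called.

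**Figure D4:**
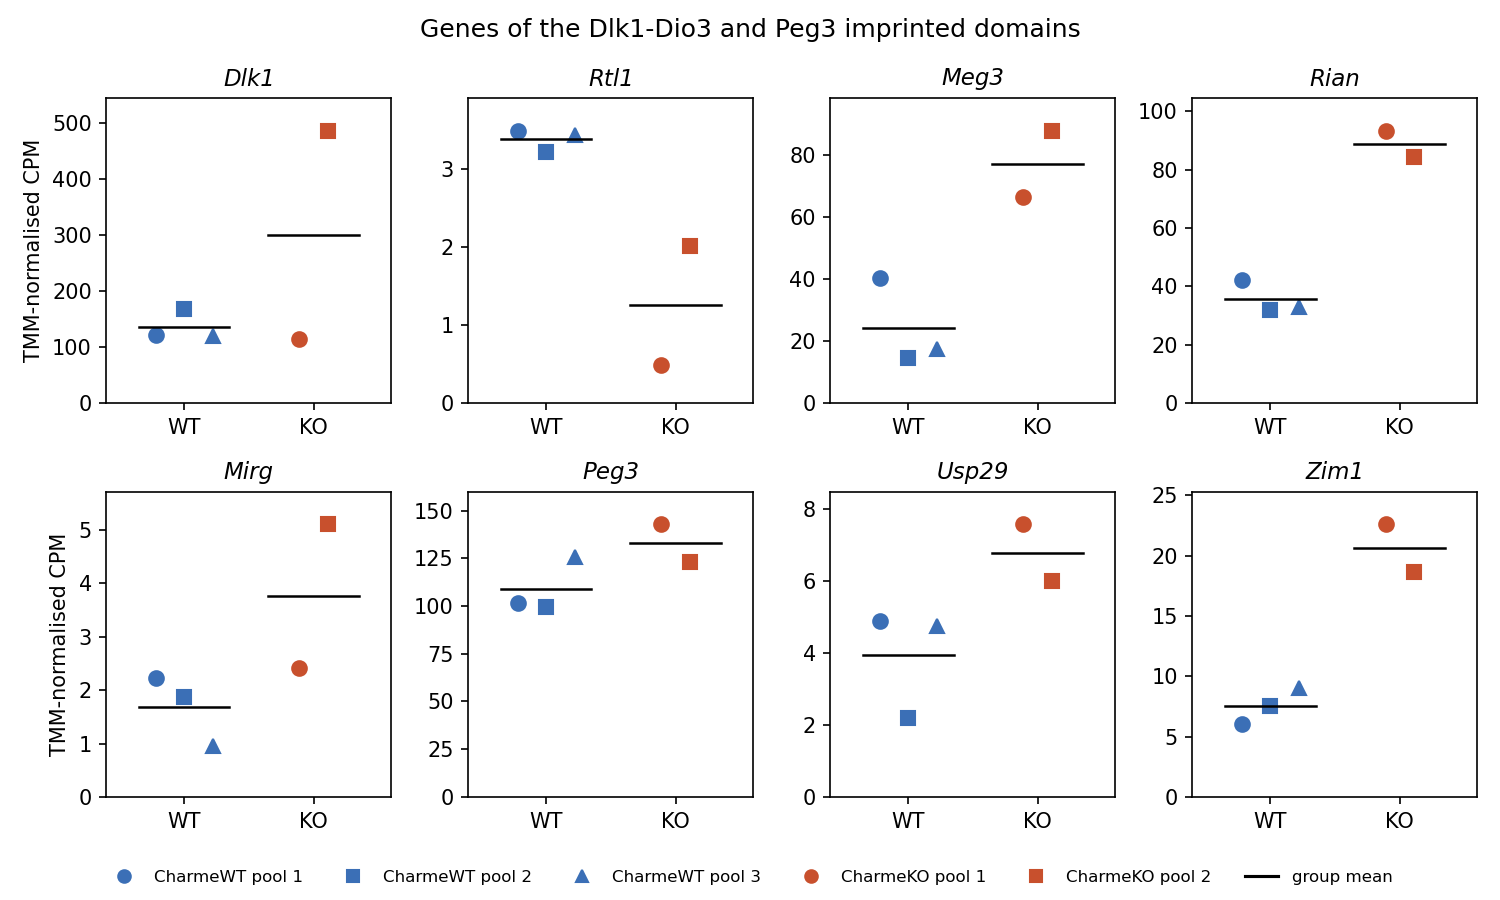
Levels of 5 tested genes of the Dlk1-Dio3 domain and 3 of the Peg3 domain are plotted in TMM-normalised CPM, on axes that start at 0, in 3 CharmeWT pools (blue) and 2 CharmeKO pools (red), with bars at the group means. Meg3, Rian, Mirg, Usp29 and Zim1 had both CharmeKO pools above every CharmeWT pool, and Rtl1 had both below.

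Genes listed as imprinted elsewhere in the genome were not called. Some genes are imprinted only in certain tissues, and imprinting in the heart was not tested. Of 24 listed, 23 were tested and the quasi-likelihood test called 0, with a lowest adjusted p of 0.154 from edgeR. An unadjusted p under 0.05 was found for 2, beside 2767 of all 14880 genes, and the median log2 fold change was 0.07. The likelihood ratio test called 1 higher and 0 lower (3.92% and 2.35% of all genes). DESeq2 called 0, where it called 4.17% of all genes higher and 3.37% lower. Without CharmeKO pool 1 none was called, and without CharmeKO pool 2 the calls were 3 higher and 3 lower, where 16.1% and 15.6% of all genes were called. The most abundant were Gnas, which encodes a G protein subunit, Dcn, which encodes the matrix proteoglycan decorin, and Ndn, with log2 fold changes of -0.02, 0.38 and 0.33. Both CharmeKO pools were above every CharmeWT pool for 7 of the 23 genes and below for 3, beside 17.8% and 18.2% of all genes tested.

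In the IGF axis, 18 of 19 genes were tested. The list holds ligand, receptor, binding protein and substrate genes other than Igf2 and Igf2r. It also holds Pappa, Pappa2 and Stc2, and the mRNA-binding protein genes Igf2bp1, Igf2bp2 and Igf2bp3. Igfbp3, which encodes the main carrier of IGFs in serum, rose, and 0 genes fell (1.53% and 0.524% of all genes). An unadjusted p under 0.05 was found for 5 genes, beside 2767 of all 14880, and the median log2 fold change was -0.15. Igfbp3 was at 34.4, 31.1 and 37.6 CPM in CharmeWT pools and at 50.2 and 80.2 CPM in CharmeKO pools. Its CharmeKO pools did not overlap the CharmeWT pools (log2 fold change 0.93, SE 0.222, adjusted p = 0.0958 from the quasi-likelihood test of edgeR), but the call was lost in 8 of 17 alternatives, among them each fit without a CharmeWT pool. The likelihood ratio test called 2 genes higher and 0 lower (all genes, 3.92% and 2.35%), and DESeq2 called 1 higher and 1 lower (all genes, 4.17% and 3.37%). Without CharmeKO pool 1 the calls were 1 higher and 2 lower (all genes, 3.06% and 1.27%), and without CharmeKO pool 2 they were 2 higher and 3 lower (all genes, 16.1% and 15.6%). The 3 most abundant, the binding protein genes Igfbp7, Igfbp5 and Igfbp4, had log2 fold changes of -0.15, -0.36 and -0.17 and were not called.

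**Figure D5:**
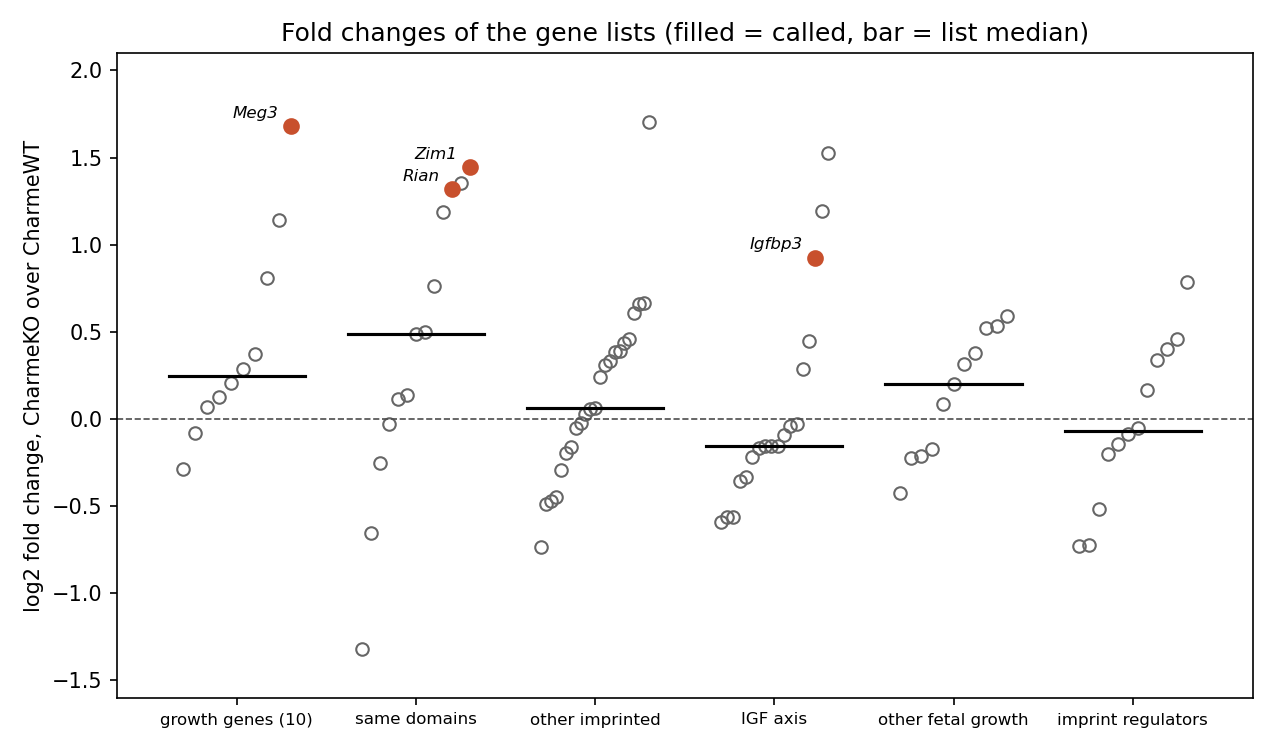
Each point is the log2 fold change of 1 tested gene, CharmeKO over CharmeWT, in the 10 imprinted growth genes and 5 companion lists; filled points were called and bars are list medians. The medians were 0.25 for the 10 genes and 0.49 for further genes of their domains, and between -0.15 and 0.20 for the other 4 lists.

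Growth genes that are not imprinted and also decline with age numbered 12, of which 11 were tested and 0 called. Their median log2 fold change was 0.20. An unadjusted p under 0.05 was found for 1 of them, beside 2767 of all 14880 genes. That one was Gpc3, which encodes a heparan sulphate proteoglycan that limits body growth, at 111, 94.7 and 95.3 CPM in CharmeWT pools and 153 and 149 CPM in CharmeKO pools (log2 fold change 0.59, SE 0.166, adjusted p = 0.139 from the quasi-likelihood test of edgeR). The likelihood ratio test and DESeq2 each called 1 gene of this list higher (3.92% and 4.17% of all genes) and 0 lower (2.35% and 3.37%). Mdk and Hmga1, the next most abundant, had log2 fold changes of -0.21 and -0.22. Without CharmeKO pool 1 none of the list was called, and without CharmeKO pool 2 the calls were 3 higher and 1 lower, beside 16.1% and 15.6% of all genes.

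Of 13 listed regulators of imprints and DNA methylation, which include Tet1, Tet2 and Tet3, 12 were tested and 0 called. Their median log2 fold change was -0.07. An unadjusted p under 0.05 was found for 3, beside 2767 of all 14880 genes. The likelihood ratio test and DESeq2 each called 0 higher (3.92% and 4.17% of all genes) and 2 lower (2.35% and 3.37%). The 2 were Dnmt3a and Tet3, and Tet3, too, was named after its values were seen. The lowest value was that of Dnmt3a, the methyltransferase that sets germ line imprints, named after its values were seen. It was at 108, 131 and 134 CPM in CharmeWT pools and at 75.8 and 74.4 CPM in CharmeKO pools (log2 fold change -0.73, SE 0.179, adjusted p = 0.102 from the quasi-likelihood test of edgeR). The most abundant were Trim28, Ctcf, which binds the control region of H19 and Igf2, and Uhrf1, with log2 fold changes of -0.20, -0.14 and 0.34 and no call. The calls were 0 higher and 1 lower without CharmeKO pool 1 (3.06% and 1.27% over all genes), and 3 higher and 3 lower without CharmeKO pool 2 (16.1% and 15.6% over all genes).

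Summed levels of some cell-type marker lists of 6 genes did not overlap between the genotypes, with no test of the sums. Fibroblast markers summed to between 2332 and 2710 CPM in CharmeWT pools and to 2869 and 3347 CPM in CharmeKO pools, but of the 6 genes only Postn had both CharmeKO pools above every CharmeWT pool, and 5 overlapped. Epicardial markers stood at 96.0 to 140 CPM against 174 and 158 CPM, with 3 genes above (Upk3b, Msln and Upk1b), 1 below (Aldh1a2) and 2 overlapping. Mural cell markers summed to between 660 and 791 CPM in CharmeWT pools and to 548 and 444 CPM in CharmeKO pools, with 4 of 6 genes below. Erythroid markers summed to 748 to 1123 CPM against 2078 and 1406 CPM, with 5 of 6 genes above. Over all genes tested, 17.8% lay above and 18.2% below. Of these 4 lists, 2 erythroid markers were called and 0 genes of the others. Endothelial, macrophage and skeletal muscle sums overlapped between the genotypes. Yet 3 of the 6 skeletal muscle markers (Myh3, Myh8 and Tnnt3) had both CharmeKO pools above every CharmeWT pool, and 3 overlapped. Of the 6, 1 was called. The part of these cell types, and of the adipose and salivary gland transcripts, in the values of Meg3, Rian, Zim1 and Igfbp3 was not tested. When mitochondrial genes and the 6 salivary gland markers were left out before normalization, Meg3 kept its call (adjusted p = 0.0745 from the quasi-likelihood test of edgeR). The median log2 fold change of the 10 genes was then 0.24. Leaving these genes out changes only the scaling, so it cannot show the part of other tissues in the value of Meg3.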

How the data were processed

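RNA-seq of pooled PN2 hearts was used, from 3 CharmeWT and 2 CharmeKO pools named by their labels. The authors trimmed reads with cutadapt, aligned them with STAR to GRCm38 (mm10) and deposited whole-number counts of fragments per gene, with strand. A deposited FPKM table was not used, since it gives no gene lengths. FPKM were computed from the counts with exon lengths of GENCODE M21, which matched 49411 of the 49671 genes, and 23 tested genes without a length were given 1 kb. Genes that reached 10 counts in 2 or more pools entered the quasi-likelihood test of edgeR (glmQLFit, legacy=FALSE) with TMM factors, with Benjamini-Hochberg adjustment over all 14880 genes. The filter and thresholds follow the study's methods, which name the likelihood ratio test. The SE is the size of the log2 fold change over the square root of F. R 4.3.3, edgeR 4.0.16, limma 3.58.1 and DESeq2 1.42.0 were used, and the test was tried on simulated data. The 10 genes and all lists were chosen with earlier results of these data known. Named were all 10 genes, Charme, the called genes and the 3 most abundant of each list, and the 5 genes nearest to H19, besides those stated as named after their values were seen. Alternatives were other normalizations, filters, tests and thresholds, a replicate block, a length and GC correction with splines of 4 degrees of freedom, and each pool left out, which was run on the companion lists only after seeing the data. The 10 genes had between 256 and 66428 counts in a pool. The reads carry no molecular identifiers, littermates were pooled by genotype with males and females chosen at random, and p-values measure only the spread between these pools.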

Additional observations from a re-analysis of the deposited data

How the results depend on the processing

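The number of the 10 genes called higher in CharmeKO hearts was 1, Meg3. It was 2 in DESeq2, 2 in the likelihood ratio test and 2 after the length and GC correction (Cdkn1c and Meg3 each time), 0 in the robust quasi-likelihood test, 0 at an adjusted p under 0.05, 0 with the replicate block and the correction together, and between 0 and 3 when 1 pool was left out. None was called lower under any alternative. The median log2 fold change of the 10 genes was between 0.12 and 0.29 when 1 pool was left out, the lowest without CharmeKO pool 1. Pools share only replicate numbers: deviations from the group means correlated at 0.137 for pools 1 and 0.0778 for pools 2, over only 2 pairs. CharmeWT pool 3 and CharmeKO pool 2, of unlike number, gave 0.0587. The deviations of the 2 CharmeKO pools mirror each other, so these values are not independent and cannot show a pairing. With the replicate block alone Meg3 was still called (log2 fold change 1.65, adjusted p = 0.0865 from edgeR), and 210 genes in place of 305 were called. Igf2 reversed to 0.21 after the length and GC correction and to 0.23 with the block added. With 1 pool left out, log2 fold changes ranged from -0.21 to 0.036 for Igf2, from -0.27 to 1.84 for Dlk1, from -0.039 to 0.26 for Plagl1, from -0.35 to 0.60 for Grb10, from -0.60 to -0.03 for Igf2r, from 0.37 to 1.14 for Cdkn1c, from 0.22 to 0.62 for Mest and from 0.18 to 0.40 for Peg3. The log2 difference of the Igf2 to Igf2r ratio ranged from -0.19 to 0.64, and that of the Meg3 to Dlk1 ratio from 0.17 to 1.86. Of 170 values of the 10 genes, 153 kept direction and side of the threshold, 4 fell below it, 6 passed it and 7 reversed. Over all genes, 933 were called in the likelihood ratio test, 1129 in DESeq2, 371 after the length and GC correction, 43 with the block added, 2 without CharmeWT pool 1, 187 without CharmeWT pool 2, 0 without CharmeWT pool 3 (1315 at an unadjusted p under 0.05), 639 without CharmeKO pool 1 and 4606 without CharmeKO pool 2. The causes were not tested. The lowest count of the 10 genes in a pool was 256, and the effect of depth was not tested.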
